A study of Mus musculus with 4 samples.

Results

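The genes described here are the 10 steroidogenic genes by which Leydig cells, the interstitial cells of the testis that make androgens, take up cholesterol and turn it into testosterone and its reduced products. They are Scarb1, Star, Cyp11a1, Fdx1, Hsd3b1, Hsd3b6, Cyp17a1, Hsd17b3, Srd5a1 and Akr1c14, chosen by symbol, and all 10 were found among the 32285 genes counted. The study asked how far mouse testicular organoids (TOs) resemble the testis, and it profiled 2 TO libraries and 2 testis libraries, each of unsorted cells, by droplet single-cell RNA sequencing. TOs were assembled from dissociated testes of ICR pups (an outbred stock) at about 6 days of age, reaggregated in microwells, embedded in basement membrane extract on transwells and released from it later, in a medium that held follicle-stimulating hormone and testosterone and did not list luteinizing hormone. The comparison testes were decapsulated and taken at 28 days of age. The TOs are 28 days old in the series description and in the study's text and methods, but day 21 in the protocol of the samples.

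Androgen synthesis begins when cholesterol, taken up in part through the scavenger receptor encoded by Scarb1, is carried to the inner mitochondrial membrane by the Star protein. There Cyp11a1, fed with electrons by the ferredoxin Fdx1, cleaves the side chain to give pregnenolone. The 3-beta-hydroxysteroid dehydrogenases encoded by Hsd3b1 and Hsd3b6, the 17-hydroxylase/lyase Cyp17a1 and the 17-ketosteroid reductase Hsd17b3 complete the route to testosterone. Srd5a1 and Akr1c14 reduce testosterone further, to 5-alpha-reduced androgens, which immature Leydig cells are known to release. Hsd3b6 and Hsd17b3 are known as genes of the adult Leydig cell generation, and luteinizing hormone acts on Leydig cells through the receptor encoded by Lhcgr.

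The 2 isozymes Hsd3b1 and Hsd3b6 catalyse the same reaction, and their levels lay on opposite sides of the testis levels in TOs, so the 250 bases before each start site are shown. The higher level of Hsd3b1 did not pass the test given below. Of the 12227 genes tested, 40.2% were higher in both TO libraries than in either testis library. Both genes lie on the minus strand of chromosome 3 (GRCm38), Hsd3b1 at 98852194 to 98859794 and Hsd3b6 at 98805504 to 98814443. The sequences are those of RefSeq on GRCm38.p6, at chr3:98859795-98860044 for Hsd3b1 and chr3:98814444-98814693 for Hsd3b6, both read 5′ to 3′ on the minus strand. Capitals mark AAGGTC or AAGGCC on either strand, core words of the kind bound by the steroidogenic factor Nr5a1.
Hsd3b1: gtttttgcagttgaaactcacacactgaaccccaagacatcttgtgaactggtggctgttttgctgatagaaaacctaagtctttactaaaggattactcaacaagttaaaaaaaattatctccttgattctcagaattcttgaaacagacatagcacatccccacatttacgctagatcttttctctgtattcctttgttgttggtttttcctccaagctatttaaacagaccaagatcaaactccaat
Hsd3b6: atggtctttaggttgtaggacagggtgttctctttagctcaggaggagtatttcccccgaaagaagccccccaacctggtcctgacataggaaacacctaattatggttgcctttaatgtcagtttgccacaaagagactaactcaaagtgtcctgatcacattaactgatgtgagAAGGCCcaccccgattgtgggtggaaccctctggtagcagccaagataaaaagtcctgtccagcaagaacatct

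The Hsd3b6 window held 1 such word, starting 74 bases before the start site, and the Hsd3b1 window held none. The words occurred in 7642 of 32851 promoter windows of this length (23.3%) and in 1 of 8 windows of the members. A window was given for 7 of the 10 genes, and none for Star, Cyp17a1 and Scarb1. Any tie between the word and the levels was not tested. After global alignment, 49.3% of positions matched between the 2 windows. The longest transcripts of the 2 genes matched at 78.2% of positions and their last 500 bases at 74.5%, with 0 of 451 words of 50 bases shared, so reads of that length from the 3′ ends differed between the genes. Of the other members, Srd5a1 (chromosome 13, 69573449 to 69611442, minus strand) overlapped Nsun2 on the opposite strand, and Cyp11a1, Scarb1 and Akr1c14 each overlapped a predicted gene on their own strand.

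The libraries held 11826 to 14643 barcodes and 74988295 to 119966959 UMIs, and 8713 to 9867 cells per library passed the filters. Any pair of libraries shared at most 55 cell barcodes (0.440% of the smaller library). Leydig cells were found from 9 markers that were not members of the set, and the members were also kept out of the genes used for clustering, so that membership in the class did not rest on them. All 9 markers (Insl3, Lhcgr, Nr5a1, Gramd1b, Fabp3, Prlr, Klk1b21, Klk1b24 and Klk1b27) were detected in the Leydig cells of each library. The TO libraries gave 1723 and 1585 Leydig cells and the testis libraries 570 and 342, which was between 19.5% and 21.8% of the somatic cells of each library. Their UMIs were summed per library, to 18294036, 18808678, 3607103 and 3399471 UMIs, and levels are given as CPM, a gene's UMIs scaled to a common total per sum, in the order replicate 1, replicate 2. UMIs come from 3′ ends, so levels were not divided by gene length. The 9 Leydig markers summed to 12692.9 and 5806.5 CPM in TO Leydig cells and to 7546.5 and 17028.5 CPM in testis Leydig cells. Insl3 was at 2258 and 150 CPM in TOs and at 3336 and 1732 CPM in testes, so marker levels were not alike across libraries. Spermatid markers summed to 0.656 and 2.92 CPM in TO Leydig cells and to 1472 and 2118 CPM in testis Leydig cells, with Tnp1, Prm1, Prm2 and Sun5 at 0 in TO replicate 1, and the part of this difference in the results was not tested. In Leydig cells the somatic lists were Sertoli markers at 205 to 322 CPM with Amh at 0 in 3 of 4 libraries, stroma markers at 238 to 599 CPM, myoid markers at 14.4 to 79.6 CPM and macrophage markers at 7.94 to 49.3 CPM. Spermatocyte markers, at 58.2 and 48.6 CPM in TOs and 249 and 212 CPM in testes, lay on the same side as the spermatid markers, and spermatogonia markers were at 67.1 to 144 CPM. The upper limits on genes and UMIs removed 8.50% and 21.2% of TO Leydig cells but 0.350% and 2.56% of testis Leydig cells. When the libraries were not joined by Harmony before clustering, TO and testis Leydig cells fell into separate clusters, yet the levels per library stayed close.

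Across the set, 8 of 10 genes had a lower level in both TO libraries than in either testis library, 1 (Hsd3b1) had a higher level in both, and 1 (Akr1c14) overlapped. Of the 12227 genes tested, 23.1% were lower in both TO libraries in this sense and 40.2% higher. All 10 passed the filter on low counts. With edgeR's quasi-likelihood test and Benjamini-Hochberg adjustment over 12227 genes, 0 of 10 passed an adjusted p below 0.01 with an absolute log2 fold change above 1, where 0.262% of all genes were called higher and 0.646% lower. At an adjusted p below 0.05 with no fold threshold, 4 of 10 were lower (Star, Hsd3b6, Scarb1 and Fdx1), against 5.92% of all genes, and DESeq2 called the same 4 at the stricter thresholds, against 6.08% of all genes. The same 4 were also called when no gene was left out for being higher in other cells, against 12.1% of 15491 genes. At an unadjusted p below 0.05, 7 of 10 were lower, against 14.7% of all genes. The median log2 fold change was -2.02 over the 10 members and 0.02 over all genes tested. In sums of this kind, fewer expressing cells and less RNA per cell cannot be told apart. The labels do not tie the replicates to animals or cultures, while the study's methods describe independent batches of TOs and biological replicates of testes.

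**Figure D1:**
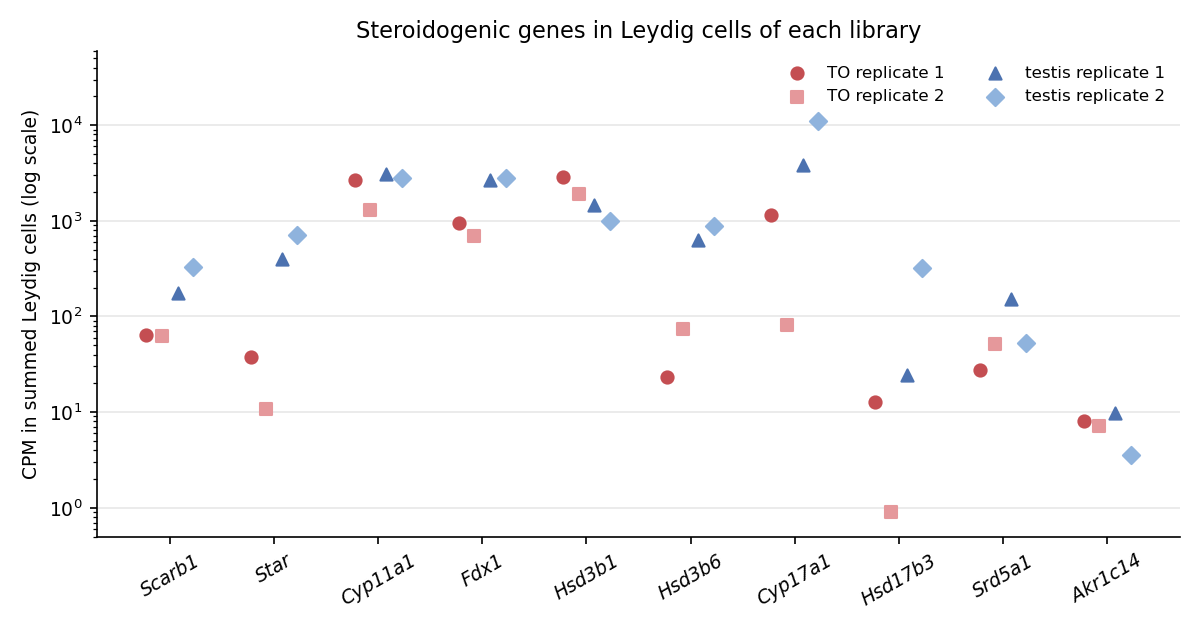
CPM of each steroidogenic gene in the summed Leydig cells of each library, on a log axis, ordered from cholesterol uptake to androgen reduction, with circles and squares for the TO libraries and triangles and diamonds for the testis libraries. The TO points lie below both testis points for 8 genes, above both for Hsd3b1, and among them for Akr1c14, and the TO points of Cyp17a1 lie at 1160 and 81.4 CPM.

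At the first steps, cholesterol uptake and its transfer into mitochondria, both genes lay lower in TO Leydig cells. Star, the carrier of cholesterol into mitochondria, stood at 37.3 and 10.7 CPM in TOs against 398 and 718 CPM in testes. The groups did not overlap, and the lower testis library was over the higher TO library by more than the SD of either group (24.0 ± 18.8 against 558 ± 226 CPM, SD, n = 2 each). The log2 fold change was -4.68 ± 0.69 (SE, edgeR adjusted p = 0.0162, above the threshold of 0.01). Scarb1, the receptor that takes up cholesterol esters from lipoproteins, was at 63.5 and 62.2 CPM in TOs and at 176 and 332 CPM in testes. Its log2 fold change was -2.16 ± 0.33 (edgeR adjusted p = 0.0176), and the 2 TO libraries were alike while the testis libraries were well apart.

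For side-chain cleavage, the enzyme and its electron donor differed in how far TOs lay from testes. Cyp11a1, which makes pregnenolone, was at 2689 and 1310 CPM in TOs and at 3112 and 2810 CPM in testes. TO replicate 1 was just under the testis libraries and TO replicate 2 at less than either, and the log2 fold change of -0.72 ± 0.42 did not pass the test (edgeR adjusted p = 0.307). Fdx1, the ferredoxin that feeds it, was at 955 and 700 CPM in TOs and at 2681 and 2792 CPM in testes, with close replicates on both sides. Its log2 fold change was -1.88 ± 0.31 (edgeR adjusted p = 0.0217). Per 100 UMIs of Cyp11a1, TO Leydig cells had 35.5 and 53.4 UMIs of Fdx1 and testis Leydig cells 86.1 and 99.4.

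The 3-beta-hydroxysteroid dehydrogenases lay on opposite sides of the testis. Hsd3b1 was at 2870 and 1897 CPM in TOs and at 1480 and 994 CPM in testes, so that both TO libraries were above both testis libraries. The same held for 40.2% of the 12227 genes tested. The log2 fold change of 0.79 ± 0.37 did not pass the test (edgeR adjusted p = 0.224). Hsd3b6, the adult isozyme, was at 23.3 and 74.7 CPM in TOs and at 635 and 873 CPM in testes, with a log2 fold change of -4.10 ± 0.60 (edgeR adjusted p = 0.0159). As a share of the UMIs of both isozymes, which does not depend on scaling, Hsd3b6 was 0.807% in TO replicate 1 (exact 95% binomial interval 0.732 to 0.887%) and 3.79% in TO replicate 2 (3.60 to 3.99%). In the testes it was 30.01% (29.0 to 31.1%) and 46.8% (45.5 to 48.0%), and the intervals cover counting error only. The mean share was 36.1 percentage points lower in TOs, and no interval of one group reached the other. The exact two-sided permutation test gave p = 0.33 for the 2 against 2 libraries, which is the smallest p this design allows.

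The 17-hydroxylase and the last step to testosterone varied widely between libraries of the same kind. Cyp17a1 was at 1160 and 81.4 CPM in TOs and at 3799 and 11040 CPM in testes. Every TO library lay below every testis library, but the 2 TO libraries were more than an order of magnitude apart, and the log2 fold change of -3.71 ± 1.23 did not pass the test (edgeR adjusted p = 0.120). Leaving out TO replicate 1 gave -6.68, which passed (edgeR adjusted p = 0.00798), while leaving out TO replicate 2 gave -2.84 and leaving out testis replicate 2 gave -2.75, which did not. Hsd17b3, which makes testosterone from androstenedione, was at 12.7 and 0.904 CPM in TOs, from 233 and 17 UMIs, and at 24.4 and 319 CPM in testes. The 2 testis libraries differed from each other more than TO replicate 1 differed from testis replicate 1, and the log2 fold change of -4.78 ± 1.51 (edgeR adjusted p = 0.108) was -1.97 without testis replicate 2 and -7.71 without TO replicate 1.

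The reducing enzymes did not separate clearly. Srd5a1, the 5-alpha-reductase, was at 27.4 and 52.1 CPM in TOs and at 153 and 52.7 CPM in testes, so that TO replicate 2 and testis replicate 2 had nearly the same level. Its log2 fold change was -1.54 ± 0.55 (edgeR adjusted p = 0.139), and it was -0.54 without testis replicate 1. Akr1c14, a 3-alpha-hydroxysteroid dehydrogenase, was at 8.14 and 7.18 CPM in TOs and at 9.70 and 3.53 CPM in testes, from 12 to 149 UMIs per library. Its log2 fold change of 0.04 ± 0.50 (edgeR adjusted p = 0.964) took the other sign in 5 of 19 alternative analyses, and the groups overlapped. Per UMI of Srd5a1 and Hsd17b3 together, Srd5a1 made up 68.3% and 98.3% in TOs and 86.3% and 14.2% in testes, so testis replicate 1 lay between the TO libraries.

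**Figure D2:**
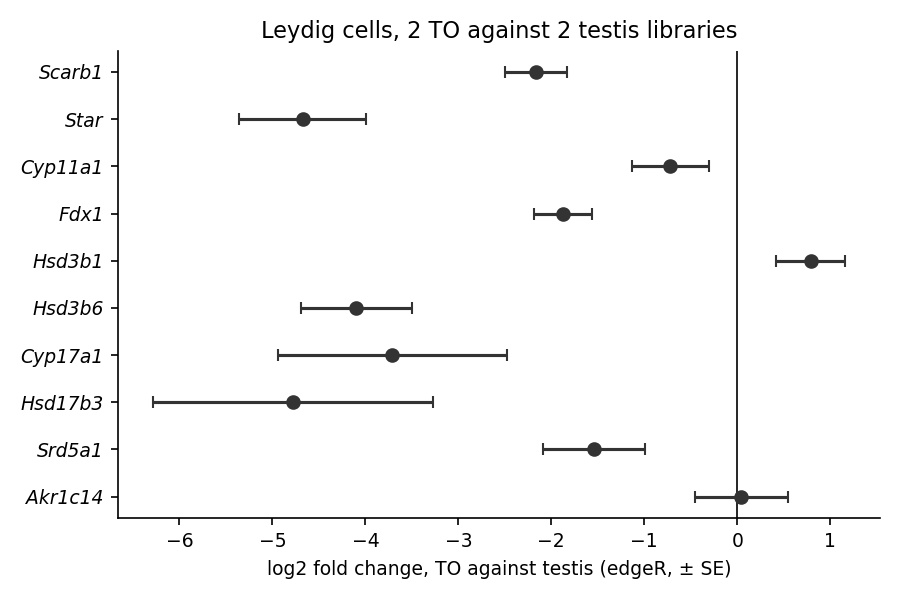
Log2 fold change of each gene in Leydig cells, TO against testis, with a standard error derived from edgeR's F value as the bar, from 2 libraries of each kind. Star, Hsd3b6, Cyp17a1 and Hsd17b3 lie below -3, the last 2 with the widest bars, and Hsd3b1 and Akr1c14 lie above 0.

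To see how many cells carried each transcript, Leydig cells were thinned to 3000 UMIs each, and the 67 and 42 TO cells and 11 and 15 testis cells with fewer were left out. A UMI of Star was found in 7.97% and 2.66% of TO Leydig cells and in 57.1% and 75.2% of testis Leydig cells. Unthinned, the shares were 17.4%, 7.13%, 74.2% and 93.3%. A UMI of Hsd3b6 was found in 3.02% and 8.23% of TO Leydig cells and in 58.9% and 72.2% of testis Leydig cells, and one of Cyp17a1 in 38.0%, 8.36%, 76.2% and 99.4% in the same order. Hsd17b3 was detected in 2.42% and 0.324% of TO cells and in 5.19% and 48.6% of testis cells. By contrast Hsd3b1 was found at like shares in all 4 libraries (82.9%, 76.4%, 83.4% and 78.0%), and Cyp11a1 in 81.4% and 75.6% of TO cells and 94.5% and 98.2% of testis cells. In all, 8 of 10 genes had a smaller share in both TO libraries than in either testis library, and Hsd3b1 and Akr1c14 overlapped, where 22.5% of the 12227 genes had a smaller share in both TO libraries. Srd5a1 was only just among the 8, with shares in TO replicate 2 and testis replicate 2 that both round to 14.1%, and unthinned its groups overlapped (38.2% in TO replicate 2 against 37.1% in testis replicate 2). For each of the 8 the exact two-sided permutation test gave p = 0.33, the smallest this design allows.

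Sertoli cells of the same libraries, thinned alike, served as the background of RNA outside Leydig cells. Before thinning, the median Sertoli cell had 6158 to 11340 UMIs and the median Leydig cell 6166 to 12322 UMIs. Hsd3b6 was in 0.151% and 0.482% of TO Sertoli cells and Cyp17a1 in 6.11% and 0 of 622 of them, which allows a share of up to 0.482% in TO replicate 2. The Leydig shares of both genes were above the Sertoli shares in each library. Hsd17b3 lay nearer to the Sertoli shares, at 2.42% against 0.302% in TO replicate 1 and 0.324% against 0 of 622 in TO replicate 2. The latter Leydig share was within the 0.482% that 0 of 622 allows. In testes Hsd17b3 was at 5.19% against 3.65% in replicate 1 and at 48.6% against 0.794% in replicate 2. Sertoli cells of testis replicate 1 held Hsd17b3 at 15.2 CPM, against 0 to 1.52 CPM in the remaining types outside Leydig cells. Their share of 3.65% is thus no measure of background for Hsd17b3. It came from 329 Sertoli cells, after 131 with fewer than 3000 UMIs were left out. For Star the order was turned in TOs, with 12.0% and 8.20% of Sertoli cells holding a UMI against 7.97% and 2.66% of Leydig cells. Star was itself higher in TO than in testis Sertoli cells, so this share is no measure of background for Star. For Scarb1, Sertoli cells had the larger shares in both TOs (32.7% and 34.7% against 13.9% and 14.5%) and in testis replicate 1 (37.1% against 30.9%), and the smaller share in testis replicate 2 (43.7% against 53.2%).

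Counted over the 5 steps from Star to Hsd17b3 (with either Hsd3b gene for the third), a thinned Leydig cell held a UMI of 2.14 and 1.68 steps on average in TOs and of 3.30 and 4.205 steps in testes, against 0.0952 to 0.377 steps in Sertoli cells. At least 1 UMI of each of the 5 steps was found in 2 of 1656 and 0 of 1543 TO cells, and in 16 of 559 and 122 of 327 testis cells. Cells with 4 steps made up 2.84% and 0.518% in TOs and 44.5% and 47.4% in testes. Most TO cells held 2 or 3 steps in replicate 1 (38.0% and 37.7%) and 2 steps in replicate 2 (60.4%). The share of a gene's UMIs held by the tenth of Leydig cells with the most of them was 71.2% and 94.6% for Cyp17a1 in TOs against 42.4% and 20.9% in testes, from 21226, 1531, 13705 and 37532 UMIs. For Cyp11a1 these shares were 37.0%, 37.1%, 27.6% and 21.4%, and for all UMIs 14.9% to 16.4%.

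**Figure D3:**
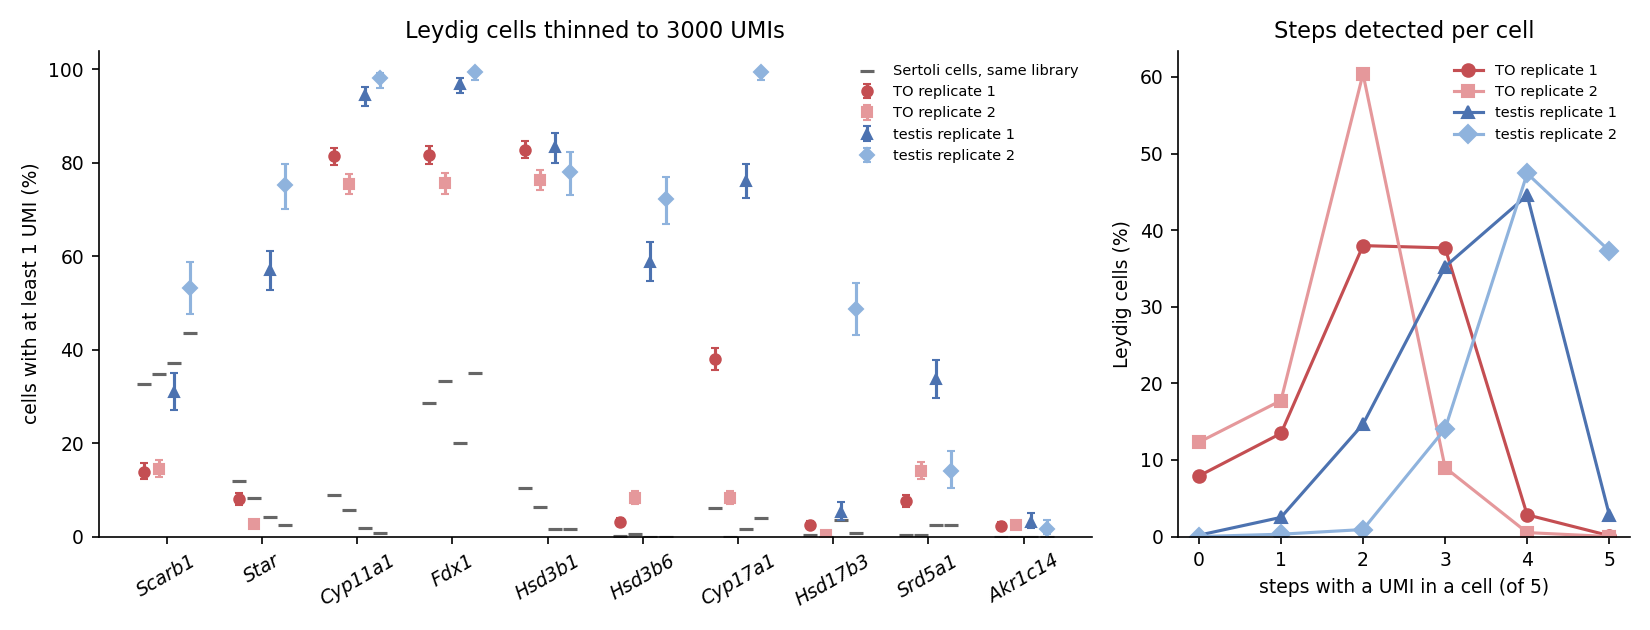
Left, percent of Leydig cells, thinned to 3000 UMIs, with at least 1 UMI of each gene in each library, with exact 95% binomial intervals, and the same share in Sertoli cells as grey dashes. Right, percent of Leydig cells by the number of the 5 steps with a UMI. The TO curves peak at 2 steps (38.0% and 60.4%) and the testis curves at 4 steps (44.5% and 47.4%).

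Within the Leydig class the members were not spread evenly, as a finer clustering (Leiden resolution 2, again without the members) showed. These values are descriptions, since the clusters were made from the same cells. Cluster 3, led by Klk1b27, Klk1b24 and Sult1e1 apart from members, held 720 and 577 TO cells and 395 and 254 testis cells. Cluster 7, led by Grm7, Serpina3a and Fabp7, held 637, 622, 130 and 67 cells. In TOs Cyp17a1 was at 1962 and 182 CPM in cluster 3 and at 73.7 and 4.17 CPM in cluster 7, while Hsd3b6 was at 2.36 and 32.8 CPM in cluster 3 and at 69.8 and 170 CPM in cluster 7. Between these 2 clusters, the one with more of one gene had less of the other in TOs. In the testes both clusters held both genes, with Hsd3b6 at 701 and 898 CPM in cluster 3 and at 591 and 861 CPM in cluster 7, and Cyp17a1 at 4845 and 11987 CPM and at 1021 and 8107 CPM. Cluster 22, led by Ccdc3, Eya1 and Dach1, held 292, 313, 45 and 20 cells with Hsd3b6 at 3.48 and 0.275 CPM in TOs and 52.4 and 348 CPM in testes, Cyp17a1 at 429, 1.37, 2186 and 5118 CPM, and Hsd3b1 at 3535, 2445, 3678 and 1451 CPM. Star was at no more than 52.0 CPM in any of these clusters in TOs and at no less than 306 CPM in any of the 3 clusters in testes. At resolution 1, a small cluster with 74 and 73 TO cells and 0 and 1 testis cells, at a median of 3398 and 3457 UMIs per TO cell, had 0 UMIs of Hsd3b6 in its TO cells, and the 10 genes' values without it stayed close.

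**Figure D4:**
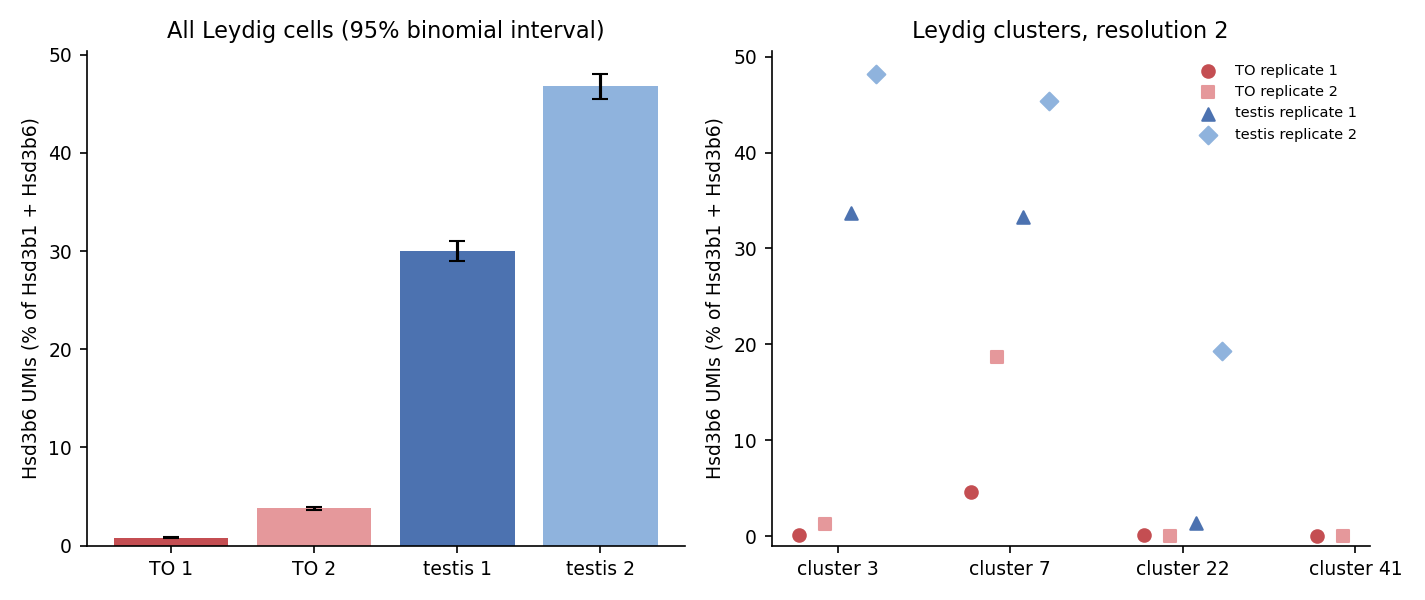
Left, Hsd3b6 UMIs as a percent of Hsd3b1 and Hsd3b6 UMIs in the Leydig cells of each library, with exact 95% binomial intervals. Right, the same share in each Leydig cluster at resolution 2 with at least 10 cells. The TO libraries stand at 0.807% and 3.79% and the testes at 30.01% and 46.8%, and in cluster 7 the TO libraries reach 4.58% and 18.6%.

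The members were next followed in the other cell types. Cyp11a1, Hsd3b1 and Cyp17a1 were highest in Leydig cells in each library, and in every other type they stood at 0 to 4.12% of the Leydig level in the same library. Hsd3b6 stood at no more than 5.00% of the Leydig level elsewhere. Fdx1 was also highest in Leydig cells, and the other types held it at 5.44 to 21.5% of the Leydig level in TOs and 2.05 to 5.99% in testes. Fdx1 outside Leydig cells was at 114 and 139 against 84.8 and 132 CPM in Sertoli cells and at 134 and 126 against 106 and 162 CPM in stroma, where TOs and testes overlapped. Srd5a1 was highest in Leydig cells too, with the next type at 20.5% of that level or less.

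Star and Scarb1 followed another order in TOs. Star was at 52.8 and 38.7 CPM in TO Sertoli cells, above the 37.3 and 10.7 CPM of TO Leydig cells, and at 10.5 and 14.7 CPM in testis Sertoli cells. In Sertoli cells it rose in TOs (log2 fold change 1.97 ± 0.27, edgeR adjusted p = 0.00154), where 6.51% of 12490 genes were called higher, and the adjusted p was 0.0102 without TO replicate 1 and 0.0270 without testis replicate 1 (edgeR). The Leydig change minus the Sertoli change was -6.59 ± 0.47 on the log2 scale (edgeR interaction test with the library as a block, adjusted p = 4.17e-05), where 7.68% of 10639 genes passed an adjusted p of 0.01. Star in the other TO types ran from 1.57 to 14.7 CPM. In each TO library the Leydig level was above that of stroma, at 37.3 against 14.7 CPM and at 10.7 against 4.97 CPM. Of the 148 Sertoli cells of testis replicate 2, 103 lay in a cluster that the other libraries lacked, so the Sertoli class was not held by the same clusters throughout.

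Scarb1 was at 134 and 144 CPM in TO Sertoli cells and at 164 and 182 CPM in testis Sertoli cells (log2 fold change -0.25 ± 0.16, edgeR adjusted p = 0.259). Its Leydig change differed from the Sertoli change by -1.68 ± 0.28 (adjusted p = 0.00291) and from the stroma change by -2.60 ± 0.32 (adjusted p = 0.00376) in the edgeR interaction tests, the latter among 11655 genes of which 2.72% passed. Fdx1 differed likewise, by -2.05 ± 0.37 from Sertoli cells (adjusted p = 0.00456) and by -1.75 ± 0.28 from stroma (adjusted p = 0.00868). In each of these tests the Leydig change was the more negative. Hsd17b3 was at 15.2 and 4.33 CPM in testis Sertoli cells, from 39 and 5 UMIs, and at 0.643 and 0.541 CPM in TO Sertoli cells. It was called lower there (log2 fold change -4.06 ± 0.67, edgeR adjusted p = 0.00315), where 15.1% of genes were called lower. With 9 and 4 UMIs in TO Sertoli cells, it passed the count filter only through the testis libraries, so the filter fixed the direction of this call. The edgeR interaction test with Leydig cells did not pass (0.71 ± 1.498, adjusted p = 0.775). In Sertoli cells Hsd17b3 had an adjusted p of 0.0108 without TO replicate 1 (edgeR), and it was removed by the filters, with no value, without TO replicate 2 or testis replicate 1.

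**Figure D5:**
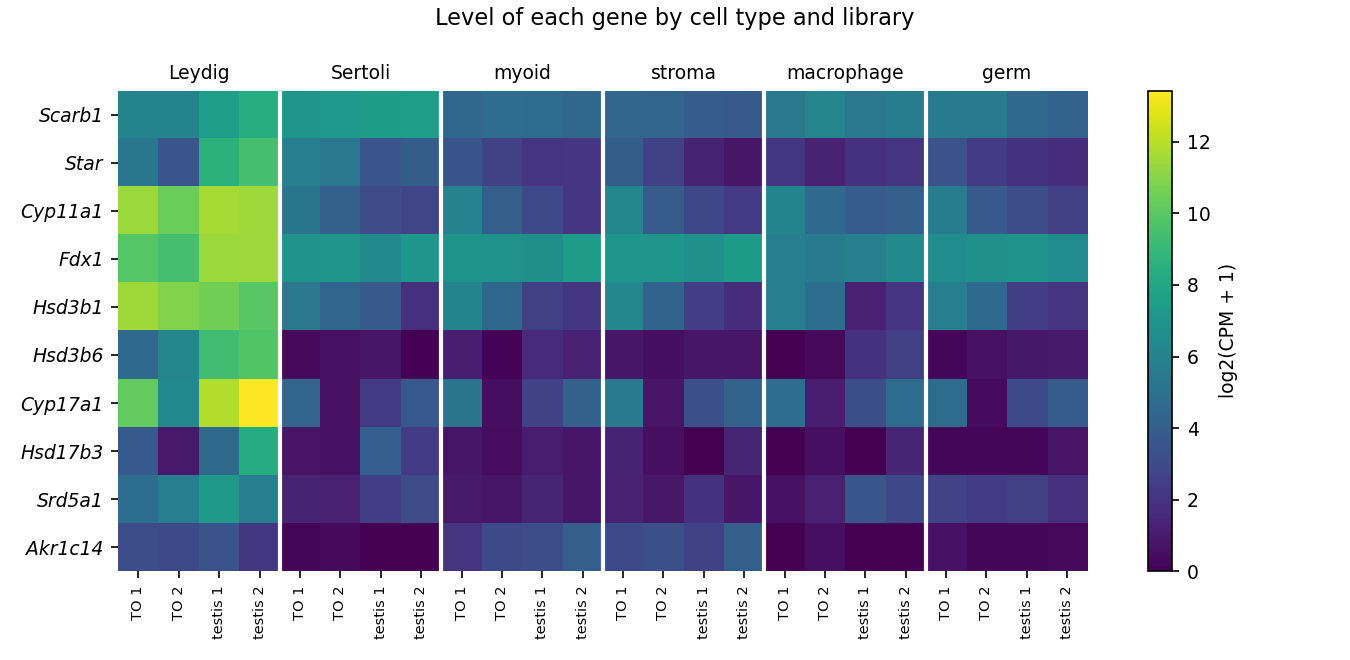
Log2(CPM + 1) of each gene (rows) in the summed cells of each type and library (columns, grouped by type). Cyp11a1, Hsd3b1, Cyp17a1 and Fdx1 are brightest in Leydig cells, Star is bright in testis Leydig cells and at 52.8 and 38.7 CPM in TO Sertoli cells, and Akr1c14 is seen in Leydig cells, myoid cells and stroma; endothelial cells, highest in Akr1c14 in the testes, are not drawn.

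Akr1c14 was no gene of Leydig cells alone. It was at 7.12 and 8.62 CPM in TO stroma and at 5.10 and 15.8 CPM in testis stroma, which overlapped the Leydig levels, and at 3.14 to 15.6 CPM in myoid cells. The highest levels were those of testis cells named endothelial (39.6 and 72.7 CPM), which also had the highest Scarb1 in the testes (820 and 494 CPM). The 66 and 79 TO cells that clustered with them had 0 UMIs of Pecam1, an endothelial marker, in both libraries (308 and 274 CPM in the testis cells) and left the cluster when the libraries were not joined, so the call of Scarb1 as lower there (56.1 and 65.8 CPM in TOs) was not read as a change in endothelial cells. This call was made where 12.8% of genes were called lower. In myoid cells and stroma, 0 of the 3 members tested (Scarb1, Fdx1 and Akr1c14) were called, where 21.8% and 18.3% of genes were called in either direction, and in macrophages the 1 member tested, Scarb1, was not called either, where 15.6% of genes were. Akr1c14 in myoid cells had a log2 fold change of -1.22 ± 0.53 (edgeR adjusted p = 0.108).

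The pathway around the members was examined next. Of 52 other genes of steroid synthesis, reduction, electron supply, cholesterol supply and regulation, 33 were tested in Leydig cells. In either direction 0 of these were called, where 0.262% of all genes were called higher and 0.646% lower. Their median log2 fold change was -0.34 with 21 of 33 below 0, against 0.02 and 5950 of 12227 for all genes tested. Another 13 were left out because other cells held at least 5 times their Leydig level in one of the conditions, 5 had too few counts and 1 was not among the genes counted. Lhcgr, the receptor for luteinizing hormone, was at 336 and 267 CPM in TOs and at 717 and 616 CPM in testes (log2 fold change -1.30 ± 0.27, edgeR adjusted p = 0.0394). Smaller edgeR adjusted p-values were those of Akr1c13 (log2 fold change -2.93, 0.0176), Gata4 (1.42, 0.0220) and Srd5a2 (-3.89, 0.0331), none of which was called. Srd5a2 had 8 and 7 UMIs in TO Leydig cells and 31 and 8 UMIs in testis Leydig cells. It passed the count filter only through the testis libraries, so the filter fixed the direction of its change. Nr5a1, the transcription factor that drives steroidogenic genes, was at 115 and 79.9 CPM in TOs and at 52.4 and 77.7 CPM in testes (0.44 ± 0.29, adjusted p = 0.358 by edgeR). The electron donors Fdxr, Por and Cyb5a had log2 fold changes of -0.72, -0.66 and -0.54, all with an edgeR adjusted p of 0.111 or more. Hsd11b1, which reactivates glucocorticoids, was at 3, 5, 8 and 0 UMIs in the 4 Leydig sums.

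Across the 28 sums of 7 types in 4 libraries, the genes most like each member were found by Pearson correlation of log2(CPM + 1), as a description, since sums of one library share depth and free RNA. Cyp11a1 was most like Hao2 (r = 0.98), Oxtr (0.95) and Klk1b27 (0.92), and Hsd3b1 most like Asgr1, Hao2 and Klk1b21 (0.92, 0.92 and 0.91). Cyp17a1 was most like Insl3, Hao2 and Ly6d (0.86, 0.86 and 0.85). Hsd3b6 was most like Bhmt, Kcnk3 and Ccs (0.89, 0.88 and 0.86), and Fdx1 most like Lhcgr, Aifm2 and Tm7sf2 (0.91, 0.90 and 0.89). The closest genes of Star were Tmem147, Vps37a and Dhcr7 (0.87, 0.87 and 0.85), and those of Srd5a1 were Hao2, Hadha and Sdhb (0.81, 0.80 and 0.80). Hsd17b3 was nearest to Ly6d (0.81), Mcrip2 (0.79) and Nat8f5 (0.78), and Scarb1 to Slc7a5 (0.83), Slc3a2 (0.80) and Gm35533 (0.78). Akr1c14 was most like Lama4, Aoc3 and Cav1 (0.91, 0.90 and 0.89). Klk1b27, Klk1b21, Insl3 and Lhcgr were among the markers that named the Leydig class, so their likeness to members was partly built in by the naming.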

How the data were processed

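Unsorted single cells of 2 TO and 2 testis samples were sequenced with 10x Genomics 3′ chemistry. The authors counted UMIs with Cell Ranger 7.1.0 on mm10 (submitters' processing notes) and deposited raw counts per gene and barcode. The annotation is not given in the sources used here.

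The highest Scrublet scores were removed as doublets (9.46 to 11.7% of barcodes per library), in place of the study's DoubletFinder. The study's limits were then applied (1000 and 5000 genes, 20000 UMIs, 10% mitochondrial RNA), leaving 37898 cells. Log-normalized values of 2000 variable genes were reduced to 30 principal components, joined with a numpy version of Harmony and clustered by Leiden (resolution 1; scanpy 1.11.5). Clusters were named by markers, with the 10 members left out of clustering and naming. These names were rebuilt and may differ from those of the study.

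UMIs were summed per library and type and tested with edgeR 4.0.16 (quasi-likelihood, TMM, filterByExpr, Benjamini-Hochberg over all genes tested; R 4.3.3). Genes at 5 times or more of the type's CPM elsewhere were left out, against free RNA. A call needed adjusted p < 0.01 together with a change over 1 on the log2 scale in either direction. Standard errors (SE) of log2 changes were derived, as the absolute change divided by the square root of edgeR's F value. The procedure was tested on simulated data. For Leydig cells it recovered 47 of 100 genes with an absolute log2 change of 2 and 95 of 100 with 4, and it called 6 unchanged genes. DESeq2 1.42.0 was an alternative, and single values were compared with exact permutation tests. Intervals and floors (3 counts) cover counting error only.

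The members and gene lists were chosen with earlier results of these data known. Named were the 10 members, any called gene of the pathway list, Lhcgr, Nr5a1, Fdxr, Por, Cyb5a and Hsd11b1. Also named were the 3 genes most correlated with each member among those of at least 50 CPM in a sum. Akr1c13, Gata4 and Srd5a2 were added afterwards for their adjusted p below that of Lhcgr.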

Additional observations from a re-analysis of the deposited data

Results flagged for a closer look

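The change between TOs and testes differed between cell types for 3 of the genes, by edgeR's interaction test with the library as a block. Against Sertoli cells 4 members could be tested and 3 passed an adjusted p of 0.01 (7.68% of all genes did), and against stroma 3 could be tested and 2 passed (2.72% of all genes). Hsd17b3 against Sertoli cells (0.71) and Akr1c14 against stroma (0.58) did not pass. For Star the Leydig change minus the Sertoli change was -6.59 on the log2 scale, from 37.3 and 10.7 against 398 and 718 CPM in Leydig cells and from 52.8 and 38.7 against 10.5 and 14.7 CPM in Sertoli cells. For Scarb1 the difference was -1.68 from Sertoli cells and -2.60 from stroma. For Fdx1 it was -2.05 from Sertoli cells and -1.75 from stroma. With 2 libraries per group no single sample could be tested for standing apart from its group.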

How the results depend on the processing

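With 2 libraries per group, exact tests cannot go below p = 0.33. In Leydig cells, 9 of the 10 log2 fold changes kept their sign in each of 19 alternatives, with ranges of -5.87 to -4.06 for Star, -5.17 to -3.51 for Hsd3b6, -2.54 to -1.63 for Scarb1, -2.14 to -1.68 for Fdx1 and -6.68 to -2.75 for Cyp17a1. Akr1c14 reversed when genes were left out from 2 times (-0.028), without upper limits (-0.26) and in thinned sums (-0.13), and ran from -0.48 to 0.98 when 1 library was left out, with -0.06 without TO replicate 1.

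The members called lower, 0 in the analysis reported, were 4 with DESeq2, 4 with no gene left out and 4 at adjusted p < 0.05 with no fold threshold. In these settings 6.08%, 12.1% and 5.92% of all genes were called lower. With no doublets removed 2 members were called lower (Star and Hsd3b6), where 591 of 13031 genes were. In thinned sums 3 were (Star, Hsd3b6 and Scarb1), where 171 of 10928 genes were. Both ends of each range of fold changes given above came from fits without 1 library. All genes called higher and lower, 32 and 79, became 50 and 124 with RLE size factors, 374 and 743 with DESeq2, 79 and 182 with every gene of at least 1 UMI, 312 and 1877 with no gene left out, 0 and 0 when left out from 2 times (8910 genes tested), 407 and 724 at adjusted p < 0.05, 7 and 3 without upper limits, 143 and 591 with no doublets removed, 16 and 40 without Harmony and 91 and 171 in thinned sums. Leaving out 1 library gave 11 to 131 higher and 1 to 722 lower, with 11 and 1 without TO replicate 2, 131 and 722 without testis replicate 2 and 54 higher without testis replicate 1. In these fits the lone library of a group is assumed to vary like the pair of the other group. The cause of these shifts was not tested.

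With the replicate number as a block, 13 genes were called higher and 43 lower, and 0 members. The deviations of same-numbered libraries correlated at r = -0.02 over 12227 genes. This value covers the Leydig sums only and cannot tell whether same-numbered libraries shared a batch, which the labels do not give. The 3 calls in other cell types were 7 with no gene left out. Those added were Hsd3b1 as higher in myoid cells, macrophages and germ cells, and Akr1c14 as lower in the cells named endothelial. There 652 of 15594, 362 of 10805 and 3648 of 20455 genes were called higher, and 1588 of 9364 lower, in the same order of types. In TO myoid cells, macrophages and germ cells Hsd3b1 stood at 1.14 to 2.29% of the Leydig level. The cells named endothelial were not read. The Hsd3b6 share differed by -44.5 to -27.7 percentage points when 1 library was left out. Leaving out the TO-only Leydig cluster, chosen after seeing the data, gave 37 higher, 93 lower and 0 members.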
